A study of Mus musculus with 25 samples.

Results

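The genes examined here were 10 LIM homeobox factors and cofactors: the LIM homeodomain factors Isl1, Isl2, Lhx1, Lhx2, Lmx1a and Lmx1b, the adaptors Ldb1 and Ldb2, and the LIM-only proteins Lmo2 and Lmo4. They were chosen as a family with earlier results of these data known, and found in the files by symbol. RNA-seq entries carrying one of these symbols made up 11 of the 24439 mouse genes measured, since Isl2 had 2 entries, and the ATAC-seq peaks whose nearest gene was one of the 10 made up 89 of the 65053 consensus peaks. Expression and open chromatin were compared between αTC1, the glucagon-producing line alpha TC1 clone 6, and βTC6, the insulin-producing line beta-TC-6. Both are mouse pancreatic islet tumour lines, and αTC1 is a single clone. The lines were grown untreated in different formulations of Dulbecco's medium, with more serum for βTC6, so line and medium cannot be told apart.

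RNA-seq was done on 3 libraries of each line and ATAC-seq on 5 of each, and 9 further ATAC-seq libraries came from mixtures of both lines at αTC1 shares from 10% to 90%, sequenced once each. The sources do not say whether replicates were separate cultures, so p-values measure only the spread between these libraries. RNA-seq libraries held 21795367 to 25876765 expected counts in all. The ATAC-seq libraries held 4397851 to 10374903 reads in peaks. ATAC-seq replicates 1 to 3 of each line differed from replicates 4 and 5 more than among themselves. Results are given with 1 to 3 alone and with 4 and 5 alone for each called peak where this changed the call, although replicates 4 and 5 of βTC6 differed from each other as well (chi-square per degree of freedom 8.52, against 4.47 to 8.28 between them and the others). In RNA-seq, αTC1 replicate 3 stood apart from replicates 1 and 2 (30.5 and 32.4, against 2.1 between those), and βTC6 replicates differed by 19.1 to 43.4. Islet cell markers separated the lines. The summed level of the alpha cell markers (Gcg, Irx1 and Irx2) was 12336 to 14669 FPKM (fragments scaled by transcript length and library depth) in αTC1 and 194 to 283 FPKM in βTC6. Summed beta cell markers (Ins1, Ins2, Pdx1, Nkx6-1, Mafa and Pax4) stood at 13.6 to 14.9 FPKM in αTC1 and 25374 to 37989 FPKM in βTC6. Of the delta cell markers, Rbp4 was at 1240 to 1678 FPKM in αTC1 and 183 to 258 FPKM in βTC6, Sst went the other way, at 0 and at 207 to 325 FPKM, and Hhex was at most 0.130 FPKM. The neural markers Tubb3, Elavl4 and Nefl summed to 108 to 121 FPKM in αTC1 and 142 to 174 FPKM in βTC6. Ppy of PP cells was at 0.0900 to 0.100 and 3.70 to 50.8 FPKM, and the ductal pair Krt19 and Sox9 at 4.05 to 4.42 and 0 FPKM. The part of these markers' cells in the results was not tested. Endothelial, haematopoietic, fibroblast and acinar lists, and Ghrl of epsilon cells, each stayed at or below 3.43 FPKM in any library.

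LIM homeodomain factors bind DNA through the homeodomain and other proteins through a pair of zinc-binding LIM domains. The LIM domains are held by Ldb1 or Ldb2, which bind each other and can bring distant regulatory elements together, often with single-stranded DNA-binding proteins of the Ssbp family. LIM-only proteins carry LIM domains without a homeodomain, and so join the same adaptors and can bridge them to E-box and GATA factors. In the pancreas Isl1 is required for the formation and function of hormone-producing islet cells, and Ldb1 works with it there.

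The sequences below are the centres of the peaks with the strongest difference near 5 of the genes, and are shown because the ATAC-seq results turn on them. Each is read from the plus strand of mm9, and capitals mark matches to any of 5 short words searched on both strands. TAATTA is the core word of many homeodomains and CTAATG a word of the Isl1 type. The E-boxes searched were CAGCTG along with its variant CAGATG. The word for zinc finger factors of the GATA family was GATAAG. The Lhx1 stretch lies 164 bases off its peak's centre, so that it stays upstream of the transcript.

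Isl1 (chr13:117435636-117435935): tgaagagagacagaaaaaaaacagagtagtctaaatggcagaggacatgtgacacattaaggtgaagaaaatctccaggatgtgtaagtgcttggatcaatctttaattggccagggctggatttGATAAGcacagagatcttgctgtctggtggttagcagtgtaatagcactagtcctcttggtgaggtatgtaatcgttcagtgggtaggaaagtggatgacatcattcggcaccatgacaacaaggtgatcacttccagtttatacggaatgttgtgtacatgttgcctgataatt

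Lhx1 (chr11:84339037-84339336): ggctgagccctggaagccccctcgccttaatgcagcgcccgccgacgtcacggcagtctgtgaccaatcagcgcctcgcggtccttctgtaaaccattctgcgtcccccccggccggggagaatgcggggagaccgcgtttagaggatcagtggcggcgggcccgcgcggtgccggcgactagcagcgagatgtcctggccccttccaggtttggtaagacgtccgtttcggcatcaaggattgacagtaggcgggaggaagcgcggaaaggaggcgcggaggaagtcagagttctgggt

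Lhx2 (chr2:38206497-38206796): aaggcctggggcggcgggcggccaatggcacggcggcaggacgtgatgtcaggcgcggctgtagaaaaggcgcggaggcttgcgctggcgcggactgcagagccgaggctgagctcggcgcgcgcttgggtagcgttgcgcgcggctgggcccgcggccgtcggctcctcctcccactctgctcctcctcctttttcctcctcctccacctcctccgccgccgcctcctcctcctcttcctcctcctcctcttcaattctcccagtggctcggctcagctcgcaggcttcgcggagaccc

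Lmo4 (chr3:143688623-143688922): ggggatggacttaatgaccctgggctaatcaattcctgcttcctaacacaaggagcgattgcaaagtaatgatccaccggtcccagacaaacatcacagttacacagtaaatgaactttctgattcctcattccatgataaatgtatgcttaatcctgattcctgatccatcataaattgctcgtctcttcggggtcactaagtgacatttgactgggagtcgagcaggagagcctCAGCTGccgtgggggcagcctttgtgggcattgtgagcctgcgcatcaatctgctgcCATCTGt

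Lmx1b (chr2:33438174-33438473): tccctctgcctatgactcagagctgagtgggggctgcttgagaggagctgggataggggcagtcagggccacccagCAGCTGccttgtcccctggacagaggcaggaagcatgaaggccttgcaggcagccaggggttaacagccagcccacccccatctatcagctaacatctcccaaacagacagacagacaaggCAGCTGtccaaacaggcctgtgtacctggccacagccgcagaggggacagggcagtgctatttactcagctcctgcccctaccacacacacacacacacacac

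The Isl1 stretch held 1 GATA word, the Lmo4 stretch 1 of each E-box and the Lmx1b stretch 2 copies of CAGCTG. Neither promoter stretch, of Lhx1 or Lhx2, held any of the 5 words, and their GC content was 65.0% and 70.3%. Of the stretches not printed, those of Isl2 and Lmx1a each held 1 copy of CTAATG, and that of Lmx1a also 1 of CAGCTG. A match describes these letters and no more.

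In both lines Isl1 was the most highly expressed of the 10 genes, followed by Ldb1 and Lmo4. Lhx1 and Lhx2 were several-fold higher in βTC6, the line through which alone they entered the test. Isl1, Ldb1 and Lmo4 were lower in βTC6, Lmo4 by the largest factor. The first 2 of these differences did not pass with library sizes taken from spike-in RNAs, although their log2 fold changes were of similar size. Isl2, Ldb2 and Lmo2 gave few reads, more of them in βTC6, and Lmx1a and Lmx1b were at or next to 0.

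**Figure D1:**
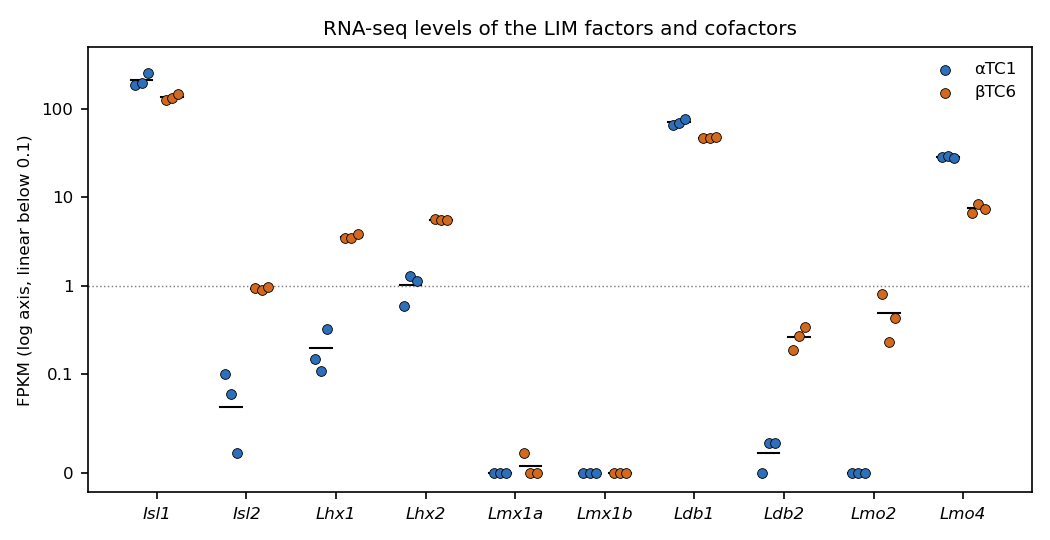
RNA-seq level in FPKM (vertical axis, logarithmic above 0.1 and linear below) of each gene in the 3 αTC1 libraries (blue) and the 3 βTC6 libraries (orange), with the 2 Isl2 entries summed; short lines are means and the dotted line marks 1 FPKM. Isl1, Ldb1 and Lmo4 sat above 1 FPKM in all 6 libraries, while Lhx1 and Lhx2 rose from at most 1.31 FPKM in αTC1 to between 3.44 and 5.66 FPKM in βTC6.

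A gene was tested where it reached 1 FPKM in all replicates of either line, and was called when the false discovery rate was under 5% and the log2 fold change exceeded 2 in size. Of the 10 genes 5 were tested, and 2 were called higher in βTC6 (Lhx1 and Lhx2) and 0 lower, against 10.2% and 4.08% of the 12195 genes tested. These edgeR counts were the same with DESeq2 and were 0 and 0 with limma on log2(FPKM + 1), and 3 of the 5 were lower at an unadjusted p under 0.05. Lhx1 and Lhx2 entered the test through βTC6 alone, so a difference in that direction was built into their selection. The other 3 passed the false discovery rate alone (Lmo4 but neither Isl1 nor Ldb1 with spike-in library sizes), a rate that 38.7% of genes met as higher and 36.0% as lower in βTC6, called ones included. The median log2 fold change over all tested genes was 0.01. At a looser limit of 1 on the log2 fold change, Lmo4 was called lower as well, beside 12.5% of genes (19.1% higher). Without the FPKM filter Isl2, Ldb2 and Lmo2 were called higher too, where 15.2% of 16351 genes were called higher and 6.01% lower.

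Isl1 (ENSMUSG00000042258, chr13:117088478-117099896 on mm9) stood at 186.55, 195.66 and 257.38 FPKM in the αTC1 libraries. Its βTC6 levels were 126.61, 133.49 and 146.57 FPKM. The groups did not overlap, and every βTC6 library was below the lowest of αTC1. The difference was 1.49-fold, a log2 fold change of -0.57 ± 0.12 (SE; edgeR quasi-likelihood test, adjusted p = 0.00204), and in bulk libraries fewer expressing cells and less RNA per cell cannot be told apart. The highest value was that of αTC1 replicate 3, which stood apart from the other 2, and without it the log2 fold change was -0.43 (edgeR adjusted p = 0.00216). With library sizes from the spike-in RNAs the log2 fold change was -0.63 and no longer passed (edgeR adjusted p = 0.27).

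Isl2, the close relative of Isl1 known from motor neurons, had 2 entries (ENSMUSG00000032318 at chr9:55386479-55393987, and ENSMUSG00000093430) between which reads were split. Summed over both, αTC1 held 3, 3 and 1 expected counts and βTC6 37, 40 and 40, so the lines did not overlap, and αTC1 was at or under the floor of 3 counts a library. The ratio was 15.6, with a 95% counting interval from 7.34 to 39.7 (exact binomial, counting error only). Each entry alone stayed below 1 FPKM in every library, so Isl2 was not among the tested genes. With the filter on FPKM removed and the entries summed, edgeR gave a log2 fold change of 3.92 ± 0.45 (SE, adjusted p = 2.88e-05).

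Lhx1 (ENSMUSG00000018698, chr11:84331479-84338923), a factor known from head, kidney and neural development, stood at 0.15, 0.11 and 0.33 FPKM in αTC1. In βTC6 it reached 3.44, 3.47 and 3.87 FPKM, at least 10 times the highest αTC1 value. The fitted difference was 30.2-fold (log2 4.92 ± 0.21 SE, edgeR adjusted p = 1.12e-07). Lhx2 (ENSMUSG00000000247, chr2:38194801-38225253), needed for eye and forebrain development, stood at 0.60, 1.31 and 1.14 FPKM in αTC1 and at 5.66, 5.60 and 5.50 FPKM in βTC6. The βTC6 libraries lay close together and far above αTC1, with an 8.50-fold difference (log2 3.09 ± 0.18 SE, edgeR adjusted p = 6.59e-07).

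Lmx1a (ENSMUSG00000026686, chr1:169619370-169778872), a regulator of midbrain dopamine neurons, was listed at 0 in all libraries but βTC6 replicate 1, which held 2 counts. Lmx1b (ENSMUSG00000038765, chr2:33416485-33496031), known from limb, kidney and serotonergic neurons, had 0 counts in all 6 libraries, which allows up to 3 counts a library. Neither was detectable as expressed at this depth, so no difference between the lines was measured.

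Among the adaptors, Ldb1 (ENSMUSG00000025223, chr19:46107083-46119704) stood at 65.26, 68.71 and 76.87 FPKM in αTC1. It was at 46.98, 46.67 and 47.67 FPKM in βTC6, lower in each library than in any of αTC1. The log2 fold change was -0.53 ± 0.08 (SE, edgeR adjusted p = 0.000331), or 1.44-fold, and with spike-in library sizes it was -0.57 and no longer passed (edgeR adjusted p = 0.332). Ldb2 (ENSMUSG00000039706, chr5:44863372-45190946) held 0, 2 and 2 counts in αTC1 and 13, 18 and 22 in βTC6. Every αTC1 library was thus under the floor of 3 counts, which leaves the ratio loosely set. It was 12.4, with a counting interval from 4.56 to 47.1, and the highest level of Ldb2 was 0.34 FPKM. Ldb1 was therefore the adaptor present at a substantial level in both lines, at more than 100 times the FPKM of Ldb2 in each library.

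Of the LIM-only genes, Lmo4 (ENSMUSG00000028266, chr3:143851494-143868184) stood at 28.31, 29.60 and 27.95 FPKM in αTC1 and at 6.70, 8.48 and 7.4 FPKM in βTC6. The lines were far apart relative to their spread, with a 3.65-fold lower level in βTC6 (log2 fold change -1.87 ± 0.10 SE, edgeR adjusted p = 4.35e-07). Lmo2 (ENSMUSG00000032698, chr2:103798143-103822035), best known from blood stem cells, had 0 counts in each αTC1 library and 30, 8 and 17 counts in βTC6. Against a floor of 3 counts per αTC1 library it was at least 5.71-fold higher in βTC6. Another gene, 4931422A03Rik, overlaps the Lmo2 start, and reads of the 2 genes may not be separable. The haematopoietic markers Ptprc, Cd68 and Itgam summed to 1.27 to 1.5 FPKM in αTC1 and 2.03 to 2.2 FPKM in βTC6, and the part of such cells in the Lmo2 counts was not tested.

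Ranked by FPKM within αTC1, Isl1, Ldb1, Lmo4, Lhx2, Lhx1 and Isl2 followed each other with no overlap between neighbours, and the rest overlapped. In βTC6 the same 6 genes came in the same order without overlap, and Lmo2 and Ldb2 next with ranges that overlapped. The gap between Lmo4 and Lhx2 was over 20-fold in αTC1 libraries and under 2-fold in βTC6 libraries.

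The genes whose levels were most like each tested one over the 6 libraries, by Euclidean distance of log2(FPKM + 1), were Ndufa2 and Ptbp1 for Isl1 (both 0.44), Csnk1g2 and Cnot7 for Ldb1 (0.16 and 0.18), and Srgap2 and Polr1a for Lmo4 (both 0.37). Those nearest to Lhx1 were Ncrna00086 and Gm572 (0.20 and 0.25), and to Lhx2 Plch1 and Cmpk2 (0.41 and 0.43). Smaller values mean closer profiles, and the 6 libraries fall into only 2 lines.

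Among 20 other genes of LIM complexes, with 21 entries, 13 were tested. Of these 1 was called higher in βTC6 and 2 lower, 3 passed the false discovery rate alone as higher and 2 as lower, and 5 did not pass, with a median log2 fold change of -0.05 beside 0.01 for all genes. Of all genes 10.2% were called higher and 4.08% lower. Ssbp4, which binds Ldb adaptors, was at 0.457 ± 0.126 FPKM in αTC1 and 30.7 ± 2.32 FPKM in βTC6 (SD, n = 3; log2 fold change 6.11 ± 0.17 SE, edgeR adjusted p = 8.63e-09), and it too entered the test through βTC6 alone. Its relatives moved less: Ssbp2 fell from 47.9 to 18.6 FPKM and Ssbp3 rose from 33.8 to 49.8 FPKM. The lower calls were the E-box factors Tcf4, with 88.8 ± 7.50 FPKM in αTC1 libraries against 15.1 ± 0.926 in those of βTC6 (edgeR log2 -2.32 ± 0.08, adjusted p = 3.02e-08), and Tal1, at 1.97 ± 0.521 and 0.0567 ± 0.0115 (-5.08 ± 0.32, adjusted p = 9.28e-07). Tal1 passed the filter through αTC1 alone. Neurod1, Tcf12, Rlim, Rnf20 and Rnf40 did not pass, with log2 fold changes from -0.13 to 0.17. Lhx3, Lhx4, Lhx5, Lhx8, Lhx9, Lmo3 and Lyl1 were below the level for testing.

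Of 8 islet genes known to be bound or controlled by Isl1 or Ldb1, all were tested, 7 were called higher in βTC6 and 1 lower, beside 10.2% and 4.08% of all genes tested. Of the 7, 6 (all but Nkx6-1) were under 1 FPKM in every αTC1 library and entered the test through βTC6 alone, so their direction was built into their selection. Many are the hormones and identity factors that define alpha and beta cells, 6 of them also among the markers above, so the list says little beyond the identity of the lines. Its median log2 fold change was 10.85, or 8.52 with the genes at 0 in a line set to their bound, beside 0.01 over all genes tested. The glucagon gene Gcg was the one lower in βTC6. Higher were Ins1, Ins2, Pdx1, Mafa, Slc2a2, Glp1r and Nkx6-1. Nkx6-1, expressed in both lines, was at 13.8 ± 0.458 FPKM in αTC1 and 60.7 ± 5.34 FPKM in βTC6 (SD, n = 3), and Pdx1, Glp1r and Ins1 were listed at 0 in αTC1.

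Open chromatin near the 10 genes was more often higher than lower in βTC6. Of the 89 peaks, 18 were called higher in βTC6 (20.2%) and 2 lower (2.25%), beside 12.9% and 5.38% of all peaks. The counts were 30 and 4 with edgeR on recovered reads, which called all 20 of these, but 4 and 0 with a pseudocount of 5 in place of 1. With replicates 1 to 3 alone 14 of the 20 were still called, and with 4 and 5 alone all 20 were. Values are normalized read counts, which the authors scaled for effective depth, and the test was limma on log2(value + 1), so fold changes of low peaks are understated. The table holds no value below 1 read. A further 29 peaks passed the false discovery rate alone as higher and 18 as lower, and 22 did not pass. Of all peaks 39.9% passed it as higher and 38.1% as lower, called ones included. At a limit of 1 on the log2 fold change 41 of the 89 were higher and 14 lower, beside 29.8% and 19.2% of all peaks. The median log2 fold change was 0.64, beside 0.0011 over all peaks.

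Position matters for reading these shares, since 50 of the 89 peaks lay over 100 kb from the start site of the gene they are assigned to, and nearest gene does not mean regulated gene. At 100 to 400 kb 12 of 46 peaks were called higher and 0 lower, where 20.3% of all peaks at that range were called higher and 4.98% lower. At 2 to 100 kb 4 of 29 were called higher and 2 lower, beside 11.9% and 7.53%. Within 2 kb 2 of 10 were called higher and 0 lower, beside 5.51% and 1.41%. Peaks of a gene share a locus, and other peaks within 1 Mb leaned the same way at some: their median log2 fold change was 0.89 around Isl1, 0.78 around Lhx1, -0.78 around Lhx2, -0.84 around Lmx1b and 0.51 around Ldb2. Around Lmo2 it was -0.69, against a median of 0.55 for its own peaks, and at the other 4 genes it was between -0.09 and 0.18. With replicates 1 to 3 alone 14 of the 89 peaks were called higher and 1 lower, and with replicates 4 and 5 alone 21 and 3.

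**Figure D2:**
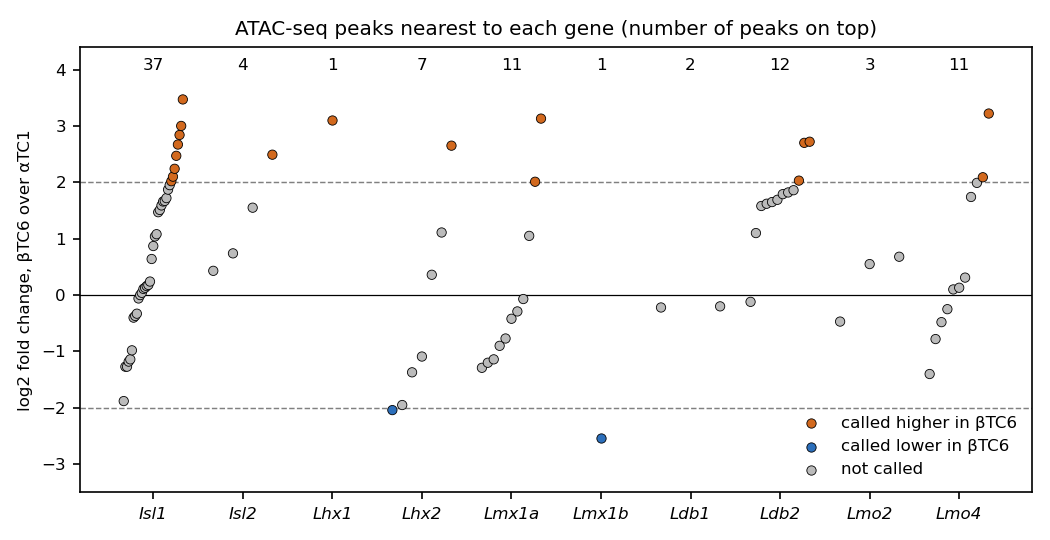
Log2 fold change, βTC6 over αTC1 (vertical axis), of each ATAC-seq peak grouped by its nearest gene (horizontal axis, peaks sorted within a gene), with orange called higher in βTC6, blue called lower and grey not called; dashed lines mark log2 fold changes of 2 and -2. Of 37 Isl1 peaks 8 were called higher, and the only lower calls were 1 Lhx2 and 1 Lmx1b peak.

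Isl1 had 37 peaks, 35 of them intergenic, of which 8 were called higher (21.6%, beside the 12.9% of all peaks) and 0 lower, 12 passed the false discovery rate alone as higher and 7 as lower, and 10 did not pass. The promoter peak (chr13:117099610-117100614) was wide open in both lines. Its normalized read counts were 63.9, 62.1, 67.5, 62.9 and 45.1 in αTC1. In βTC6 they were 60.4, 56.0, 64.6, 76.3 and 67.9. The ranges overlapped, and the log2 fold change was 0.11 ± 0.11 (SE, limma adjusted p = 0.35), -0.10 with replicates 1 to 3 alone and 0.43 with replicates 4 and 5 alone. With quantile normalization it was 0.56 and passed (limma adjusted p = 0.000118).

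The 8 called peaks lay away from the promoter, 4 of the 12 at 2 to 100 kb and 4 of the 20 at 100 to 400 kb. Of all peaks at these distances from a start site, 11.9% and 20.3% were called higher, so the Isl1 count at 100 to 400 kb stood at the background. The peak 336 kb upstream (chr13:117435418-117436154), whose centre is printed above, had 2.52, 0.983, 1.35, 0.819 and 0.289 normalized reads in αTC1. In βTC6 it had 17.2, 24.6, 19.5, 22.8 and 27.2, so the lowest βTC6 library was over 6 times the highest of αTC1. The log2 fold change was 3.47 ± 0.24 (SE, limma adjusted p = 1.03e-10). A peak 49.9 kb downstream of the start (chr13:117049446-117050483) went from 4.64 ± 2.12 to 37.0 ± 4.06 (SD, n = 5; log2 2.84 ± 0.21 SE, adjusted p = 2.50e-10 by limma). One 26.2 kb upstream (chr13:117125829-117126337) went from 2.13 ± 0.322 to 16.5 ± 3.75 (log2 2.47 ± 0.19, limma adjusted p = 5.18e-10). The 5 other called peaks, between 41.6 and 289 kb away, had log2 fold changes from 2.02 to 3.0. The peak at 196 kb (2.02) was at 1.83 with replicates 1 to 3 alone and 2.29 with 4 and 5 alone, and that at 289 kb (2.1) at 1.88 and 2.43. The median log2 fold change was 1.67 over the 12 peaks at 2 to 100 kb and 1.06 over the 20 at 100 to 400 kb. Beyond 400 kb it was -1.13 over 4 peaks, of which 3 passed the false discovery rate alone as lower. Isl1 RNA was lower in βTC6, as given above.

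**Figure D3:**
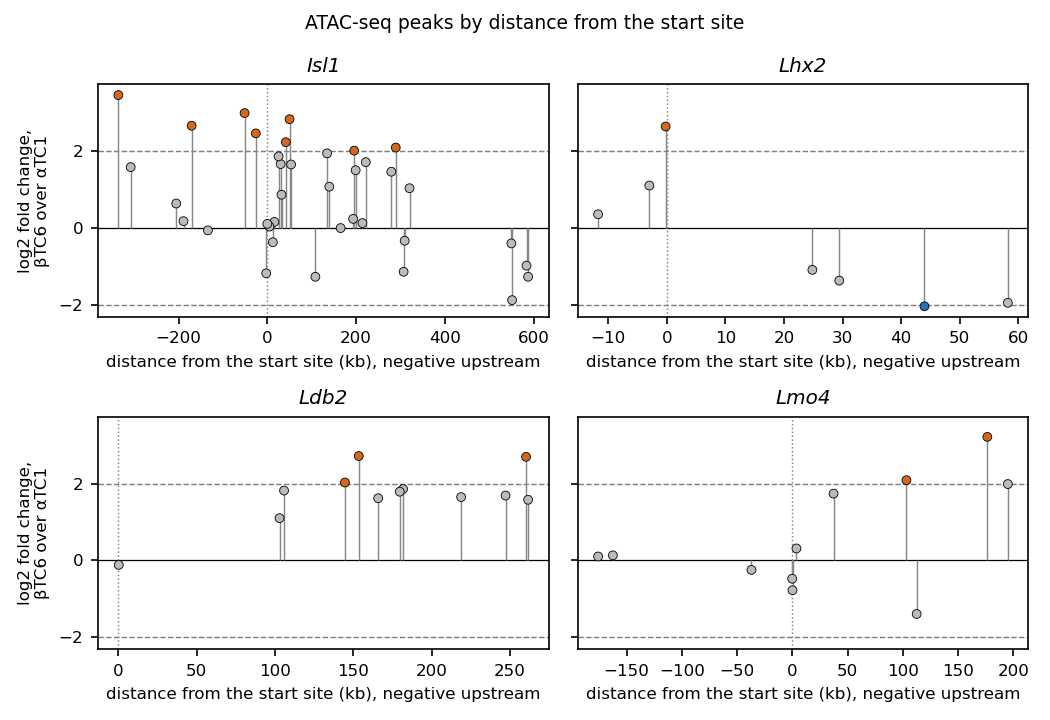
Log2 fold change, βTC6 over αTC1 (vertical axis), of the peaks nearest to Isl1, Lhx2, Ldb2 and Lmo4 against their distance from the gene's start site in kb (horizontal axis, negative upstream), coloured as called higher (orange), called lower (blue) or not called (grey). The peak at the start site stood at 0.11 for Isl1 and -0.12 for Ldb2, with the called peaks elsewhere. For Lhx2 the peak at the authors' start site was called higher at 2.65, and the peaks from 24.8 kb downstream were lower. The peak at the upstream end of the Lhx2 gene stood at 0.36 and was not called.

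All 4 Isl2 peaks lay in introns. The peak at its start (chr9:55388666-55388887) was small, at 0.144 to 0.819 normalized reads in αTC1 and 2.70 to 4.86 in βTC6, from 1 to 6 reads and 18 to 37 reads. The groups were apart and the peak passed the false discovery rate alone (log2 1.55 ± 0.18 SE, limma adjusted p = 1.52e-07). With edgeR on the recovered reads it was called, at 2.62 (adjusted p = 9.82e-07). Its called peak lay 110 kb downstream inside an intron of Scaper (chr9:55498475-55499299), with 1.26 to 3.16 normalized reads in αTC1 and 14.1 to 21.7 in βTC6 (log2 2.49 ± 0.20, limma adjusted p = 1.05e-09).

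The only peak assigned to Lhx1 was its promoter (chr11:84338543-84339503). It was nearly closed in αTC1, at 0.840, 1.26, 0.451, 0.955 and 0.578 normalized reads. All βTC6 libraries were above 11, at 14.1, 11.7, 14.7, 14.3 and 17.7. The log2 fold change of 3.10 ± 0.21 (SE, limma adjusted p = 6.59e-11) went the way of its RNA.

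Lhx2 had 7 peaks that ran in both directions. The peak at the authors' start site, called its promoter here (chr2:38206082-38207212), had 3.5, 4.49, 5.71, 4.50 and 3.03 normalized reads in αTC1. The βTC6 libraries held 34.4, 29.5, 33.1, 32.5 and 27.8, with no overlap (log2 2.65 ± 0.15 SE, limma adjusted p = 6.67e-12). A peak 44.0 kb downstream (chr2:38250404-38251191) went the other way. It had 18.2, 21.6, 18.9, 26.7 and 36.8 normalized reads in αTC1 and 3.41, 3.90, 8.38, 3.99 and 6.67 in βTC6. Its log2 fold change of -2.04 ± 0.22 (limma adjusted p = 4.75e-08) was near the limit for a call and was -1.81 with replicates 1 to 3 alone and -2.39 with replicates 4 and 5 alone. The other 3 downstream peaks, 24.8, 29.4 and 58.2 kb away, passed the false discovery rate alone as lower, with log2 fold changes of -1.09, -1.37 and -1.95. The authors' start site lies inside the gene as listed above. The peak at the gene's listed upstream end (chr2:38194808-38195442), 11.7 kb from that site, had 7.23 ± 1.15 normalized reads in αTC1 (SD, n = 5). In βTC6 it had 9.65 ± 2.02, with overlap. Its log2 fold change was 0.36 ± 0.18 (SE) and did not pass (limma adjusted p = 0.0794).

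Peaks were also measured at the Lmx1 genes, whose RNA was at or under the floor of 3 counts. Lmx1b had 1 peak, in its own intron 57.7 kb from the start (chr2:33438087-33438562). In αTC1 it held 9.38, 9.55, 9.92, 9.14 and 5.63 normalized reads. The βTC6 libraries held 0.426, 0.410, 1.35, 0.713 and 0.469, all far lower (log2 -2.54 ± 0.22 SE, limma adjusted p = 2.38e-09), while no Lmx1b RNA was counted in either line. Lmx1a had 11 peaks with a median log2 fold change of -0.42, of which 5 passed the false discovery rate alone as lower and 1 as higher, and 3 did not pass. Of all peaks 38.1% passed it as lower and 39.9% as higher, called ones included. The other 2 Lmx1a peaks were called higher, 240 and 355 kb downstream and beyond its annotated end, beside 20.3% of all peaks at 100 to 400 kb. The farther one (chr1:169974748-169975421) had 1.96 to 3.65 normalized reads in αTC1 and 26.6 to 37.0 in βTC6 (log2 3.13 ± 0.16, limma adjusted p = 1.71e-12). The nearer (chr1:169859886-169860433) had a log2 fold change of 2.01 ± 0.20 (limma adjusted p = 1.64e-08), and 1.69 with replicates 1 to 3 alone and 2.5 with 4 and 5 alone. The peak nearest to the Lmx1a start, 16.6 kb upstream, was lower in βTC6 at -0.90 ± 0.20 (limma adjusted p = 0.000414), though not past the threshold with replicates 4 and 5 alone (-0.94, adjusted p = 0.0582).

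At the adaptor genes no start site peak passed the test. Ldb1 had 2 peaks, each within 2 kb of a start site of the authors. The nearer to its site (chr19:46113726-46114458) lay inside the gene as listed above. It had 15.9 to 22.3 normalized reads in αTC1 and 12 to 20.7 in βTC6, overlapping (log2 -0.20 ± 0.14 SE, limma adjusted p = 0.181). The other (chr19:46119347-46120402), at the gene's upstream end and shared with Pprc1, had means of 28.7 and 24.3, overlapping too (log2 -0.22 ± 0.13 SE, limma adjusted p = 0.12). The Ldb2 promoter (chr5:45190487-45190952) had 4.51 to 6.50 and 3.92 to 6.77 normalized reads, overlapping too (log2 -0.12 ± 0.20, limma adjusted p = 0.606, and 0.00 with replicates 1 to 3 alone). With quantile normalization its value was -0.52 and passed (limma adjusted p = 0.0254).

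The 11 other Ldb2 peaks, all intronic and 100 to 400 kb inside this long gene, were higher in βTC6. Of them 3 were called, where 20.3% of all peaks at that range were called higher. The remaining 8 passed the false discovery rate alone, which 39.9% of all peaks met as higher, called ones included. Log2 fold changes ran from 1.10 to 2.72, with a median of 1.79. Such a peak 260 kb from the start (chr5:44930491-44930735) had 0.280, 0.702, 0.150, 0.819 and 0.289 normalized reads in αTC1. In βTC6 it had 7.24, 8.82, 8.65, 8.99 and 7.61 (log2 2.70 ± 0.20 SE, limma adjusted p = 2.34e-10). Its sequence held 1 copy of TAATTA, and is shown for that match:

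Ldb2 (chr5:44930492-44930735): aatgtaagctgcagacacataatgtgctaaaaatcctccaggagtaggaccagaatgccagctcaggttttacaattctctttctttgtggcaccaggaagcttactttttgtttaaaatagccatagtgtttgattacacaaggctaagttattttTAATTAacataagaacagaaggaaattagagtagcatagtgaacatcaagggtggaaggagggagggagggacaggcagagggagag

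The peak 154 kb from the start (chr5:45037142-45037776) had 0.433 to 1.77 and 9.84 to 15.8 normalized reads (log2 2.72 ± 0.23, limma adjusted p = 1.69e-09). A weaker called peak at 145 kb (chr5:45045909-45046637) had a log2 fold change of 2.03 ± 0.25 (limma adjusted p = 3.82e-07), and 1.56 with replicates 1 to 3 alone and 2.75 with 4 and 5 alone. The other 8 stood between 1.10 and 1.86.

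Lmo2 had 3 peaks and none was called. Its promoter (chr2:103809505-103810957) had 8.46 to 18.1 normalized reads in αTC1 and 10.3 to 27.1 in βTC6, overlapping, with a log2 fold change of 0.55 ± 0.21 (SE, limma adjusted p = 0.0207), which did not pass with replicates 4 and 5 alone (0.64, limma adjusted p = 0.156) or with quantile normalization (0.54, adjusted p = 0.0525). Nor did it without αTC1 replicate 4 (0.42), βTC6 replicate 3 (0.47) or βTC6 replicate 4 (0.43). This stretch, shared with 4931422A03Rik, was open in αTC1 cells, whose RNA-seq libraries held no Lmo2 counts.

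Lmo4 had 11 peaks. At the promoter (chr3:143867637-143869076) the values were 91.9, 89.6, 97.8, 80.8 and 66.7 in αTC1. In βTC6 they were 62.8, 58.5, 51.8, 63.6 and 65.8, all lower than in αTC1 by a small margin (log2 -0.48 ± 0.10 SE, limma adjusted p = 0.000245), and the difference was -0.69 with replicates 1 to 3 alone. It did not pass with replicates 4 and 5 alone (-0.18, limma adjusted p = 0.405) or with quantile normalization (-0.02, adjusted p = 0.857). The peak 177 kb downstream (chr3:143688203-143689343), printed above, went the other way and had the largest moderated t statistic of the 89. It held 3.5, 3.65, 2.55, 2.59 and 3.47 normalized reads in αTC1 and 36.4, 33.4, 34.6, 36.2 and 47.4 in βTC6 (log2 3.22 ± 0.15, limma adjusted p = 3.11e-13). A peak at 103 kb (chr3:143761563-143762502) rose from 3.77 ± 1.18 to 19.1 ± 4.12 (SD, n = 5; log2 2.09 ± 0.20 SE, limma adjusted p = 1.12e-08), and by 1.90 with replicates 1 to 3 alone and 2.37 with 4 and 5 alone. Between these, a peak 113 kb downstream (chr3:143752226-143753262), named after its values were seen, was lower in βTC6 as the RNA was (log2 -1.40 ± 0.12, limma adjusted p = 1.16e-09). Peaks of Lmo4 thus differed in both directions.

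Within the 300 bases at their centres, 10 of the 20 called peaks (50.0%) held TAATTA or CTAATG, beside 27.0% of the 89, 33.9% of all 11911 called peaks and 23.0% of all peaks. GATAAG was in 6 of the 20 (30.0%), beside 15.7% of the 89, 11.3% of all called peaks and 9.20% of all peaks. The E-boxes CAGCTG and CAGATG were in 25.0% and 35.0% of the 20, beside 26.1% and 38.2% of all called peaks and 23.8% and 31.2% of all peaks. Median GC content was 45% in the 20, 46.7% in the 89 and 48.0% in all peaks, and its part in the A- and T-rich words was not tested. Counts over 20 peaks are small and describe these peaks only.

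The mixtures provided libraries that the calls had not used. For each of 8 genes the called peak with the largest moderated t statistic was followed across the 9 mixtures. All 8 moved with composition in the direction set by the pure lines. The mixtures combine these same lines in known shares, and the peaks were chosen because they differed between them. A trend in that direction was therefore built in, and the tests below show only how closely values followed the shares. The normalized read count of the Isl1 peak fell from 28.6 at 10% αTC1 cells through 14.2 at 50% to 1.42 at 90%. The Lhx1 promoter fell from 12.6 through 7.16 to 1.02. At the Lhx2 promoter the counts were 18, 11.4 and 5.89. In contrast the Lmx1b peak was at 0.538, 3.51 and 4.67, the only one of the 8 to be higher with more αTC1 cells.

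Pearson r with the αTC1 share was -0.948 for Isl1, -0.926 for Isl2, -0.931 for Lhx1, -0.949 for Lhx2, -0.971 for Lmx1a, -0.887 for Ldb2 and -0.963 for Lmo4, and 0.859 for Lmx1b. Spearman rho ran from -1.0 (Lmx1a) to -0.850 (Ldb2) and was 0.867 for Lmx1b. In exact 2-sided permutation tests adjusted over the 8 peaks, the highest p was 0.00443 for Pearson r (Lmx1b; 0.00443 unadjusted) and 0.00607 for Spearman rho (Ldb2; 0.00607 unadjusted). Lmx1a reached the smallest p that 9 mixtures can give (5.51e-06 unadjusted, 4.41e-05 adjusted). Without the mixtures of 10% and 90%, r ran from -0.982 to -0.757 for the 7 falling peaks and was 0.839 for Lmx1b. Ldb2 then no longer passed (r = -0.757, exact permutation p = 0.0536).

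**Figure D4:**
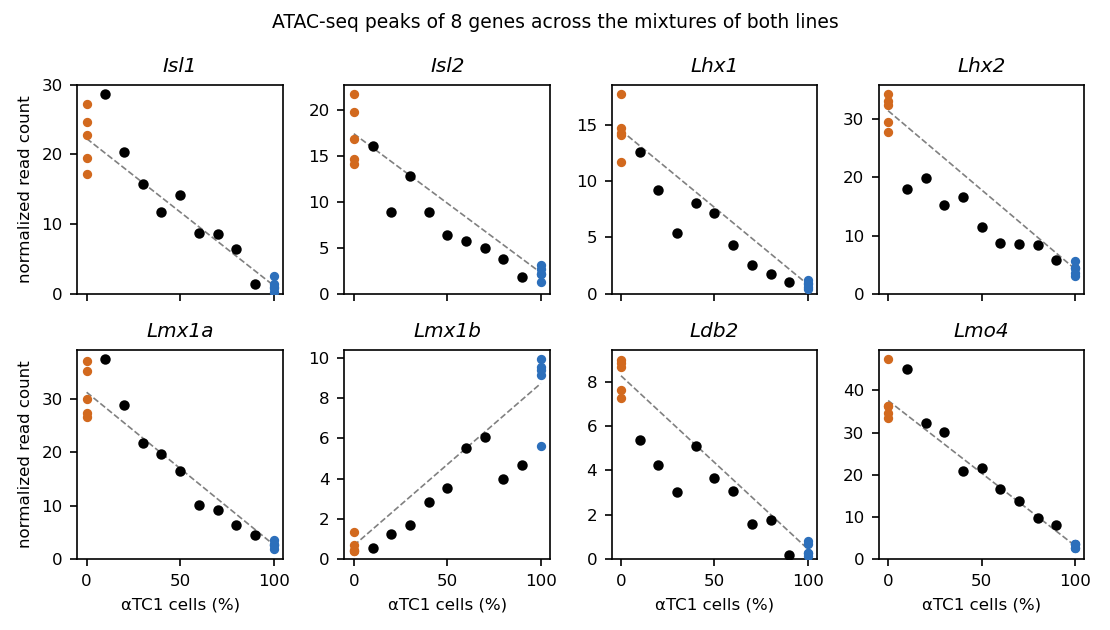
Normalized read count (vertical axis, from 0) against the percentage of αTC1 cells (horizontal axis) for 1 called peak of each of 8 genes; black points are the 9 mixtures, orange and blue points the 5 pure libraries of βTC6 and αTC1, and the dashed line joins the means of the pure lines. All peaks but that of Lmx1b fell as the share of αTC1 cells grew, and the Lhx1, Lhx2 and Ldb2 mixtures all lay below the line.

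Values were also set against those expected from the means of the pure lines in proportion to the cells mixed. The mixtures of Lhx1, Lhx2 and Ldb2 were below that value in 9 of 9 cases, with median ratios of 0.696, 0.691 and 0.719, and Isl2 in 8 of 9, with 0.720. For comparison, the median over the 20 called peaks of these genes ran from 0.761 to 1.16 between mixtures, and that over all 11911 called peaks from 0.887 to 1.07. Such medians do not show the spread of single peaks, so the 4 are described and not set apart from others. With the pure replicates 4 and 5 alone as reference Lhx1, Lhx2 and Ldb2 were still below in 9 of 9, with ratios of 0.639, 0.734 and 0.715, and so was Isl2, with 0.656. Isl1 and Lmo4 lay around the expected value, with median ratios of 1.12 and 1.05, and Lmx1a was at 0.956, or 0.831 with replicates 4 and 5. Lmx1b, whose direction is opposite, was below in 8 of 9, with a ratio of 0.590, or in 7 of 9, with 0.697, with replicates 4 and 5.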

How the data were processed

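RNA-seq and ATAC-seq libraries of αTC1 and βTC6 cells and ATAC-seq libraries of their mixtures were taken as the authors deposited them, grouped by the submitters' labels. The deposited ATAC-seq table gives a signal over consensus peaks, as read counts the authors normalized by TMM: per the submitters' notes and methods, reads were trimmed with Trimmomatic 0.32, aligned to mm9 with BWA 0.7.9a, stripped of duplicates with Picard 1.95, and peaks were called with MACS2 2.1.0 and joined with DiffBind 2.2.5. Dividing by the step of each library gave back whole reads for 100% of values within 0.01 reads. For RNA-seq the authors deposited expected counts and FPKM values from RSEM 1.2.12 after Trim Galore 0.40 and Bowtie2, and 92 spike-in entries were left out. The spike-in share of a library ran from 0.436% to 0.971%, a spread that enters the fits with spike-in library sizes. Columns of the authors' own peak classes, which hold their differential calls, were not used, and 0 columns of sample values were left over. The nearest gene and distance are the authors' HOMER 4.6 annotation, and locations are from GENCODE vM1 on mm9, since each chromosome's last peak lay within that build's sequence. Start sites of the former can lie inside a gene as listed by the latter, as at Isl2, Lhx2, Ldb1 and Lmo2.

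Genes were tested with edgeR 4.0.16 (quasi-likelihood, TMM) on expected counts rounded to whole numbers, and peaks with limma 3.58.1 (trend, pseudocount 1), both in R 4.3.3 with Benjamini-Hochberg adjustment over all features. Summaries used Python 3.11.15, pandas 2.3.3 and scipy 1.17.1. The members and lists were chosen with earlier results of these data known. All 10 genes are named. Peaks named per gene are the one nearest its start and up to 3 called in each direction by moderated t statistic. The Lhx2 downstream peaks and further Isl1 and Lmo4 peaks were added after their values were seen. So were the Lhx2 peak at the gene's upstream end and the other Ldb1 peak. Alternatives covered normalization (spike-in library sizes among them), filters, pseudocounts, tests (DESeq2 1.42.0 on the rounded counts among them) and leaving out libraries. Protein sequences were not used here. Some genes of the planned alpha cell marker and islet gene lists are not reported here, and list values leave them out.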

Additional observations from a re-analysis of the deposited data

Results flagged for a closer look

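Each named peak was examined in each line for a library far from the other 4, with Dixon's criterion at 95%, and 4 of 44 groups of 5 libraries met it. Chance gives about 1 in 20 such groups. At the Isl1 promoter, αTC1 replicate 5 was the lowest with a normalized read count of 45.1, the next being 62.1. At the Lmx1b intronic peak the same library, αTC1 replicate 5, was lowest with 5.63, the next being 9.14. At the Ldb2 peak 154 kb from the start, βTC6 replicate 3 was highest with 15.8, the next being 11.4. At the Lmo4 peak 177 kb downstream, βTC6 replicate 5 was highest with 47.4, the next being 36.4.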

How the results depend on the processing

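Counts of calls moved with the threshold and with how low values were treated, and the 5 tested genes kept their direction under every alternative run, but with spike-in library sizes Isl1 (-0.63, edgeR adjusted p = 0.27) and Ldb1 (-0.57, adjusted p = 0.332) no longer passed the false discovery rate. Genes called higher in βTC6 numbered 2. They were 6 entries without the FPKM filter and 5 with the Isl2 entries summed as well, an alternative chosen after seeing the data, and 0 with limma on log2(FPKM + 1), where Lhx1 had a log2 fold change of 1.94 and Lhx2 of 1.72. At an absolute log2 fold change over 1, genes called lower went from 0 to 1. Leaving out each library in turn gave 2 higher and 0 lower throughout. Peaks called higher numbered 18 and lower 2. At an absolute log2 fold change over 1 they were 41 and 14, and with edgeR on recovered reads 30 and 4. With pseudocount 5 they were 4 and 0, with 0.5 26 and 3, and with quantile normalization 12 and 3. Within 50 kb of the start site they were 5 and 1. A mean of at least 5 left 1 lower, as did replicates 1 to 3 alone. Leaving out each library gave 16 to 19 higher and 1 to 3 lower. The promoter peaks of Isl1 (-0.10) and Ldb2 (0.00), not called in any fit, turned direction with replicates 1 to 3 alone, and with quantile normalization (0.56 and -0.52) both passed the false discovery rate.

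The Lhx2 downstream peak fell under the limit without αTC1 replicate 4 (-2.0) or 5 (-1.88) or βTC6 replicate 1 (-1.93), 2 (-1.97) or 4 (-1.97). The nearer Lmo4 peak did so without αTC1 replicate 4 (1.94) or βTC6 replicate 2 (1.99), the nearer Lmx1a peak without αTC1 replicate 5 (1.81) or βTC6 replicate 1 (2.0) or 5 (1.94), and the Ldb2 peak at 145 kb without αTC1 replicate 4 (1.87) or 5 (1.95) or βTC6 replicate 5 (1.91). Quantile normalization also put 6 of the 20 called peaks under it, among them the nearer Lmo4 (1.91) and Lmx1a (1.88) peaks and the Ldb2 peak at 145 kb (1.6). With pseudocount 5, 16 did not pass, among them the Lhx1 (1.74) and Lhx2 (1.98) promoters and the Lmx1b peak (-1.27). The cause was not tested.

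Same-numbered replicates of the lines did not deviate together (correlations from -0.047 to 0.025 in RNA-seq and -0.002 to 0.069 in ATAC-seq), so the numbers do not pair them. With the replicate block the counts were 2 and 0 genes and 18 and 2 peaks. Low depth limits Isl2, Ldb2, Lmo2, Lmx1a and Lmx1b RNA, and αTC1 values of many called peaks rest on few reads. The use of pure replicates 4 and 5 alone as reference for the mixtures was also chosen after seeing the data.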
